A study of Homo sapiens with 8 samples.

Results

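Potassium channel genes carry symbols that begin with KCN, and this is an account of the captured and control DNA regions that lie in or beside them. A region was counted where one of the authors' gene names for it began with KCN, held no hyphen and had no strand mark, on an autosome. This gave 1440 regions of 327832 in 6 deposited lists, and they named 81 of the 93 autosomal protein-coding KCN genes of the RefSeq gene table that were analysed here. The rule used names alone, not the measured ratios.

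Potassium channels let potassium ions cross the cell membrane down their gradient, which sets the resting potential and ends each action potential. Pore-forming subunits are opened by voltage, by calcium or sodium inside the cell, or conduct at rest as inward rectifiers and leak channels, and auxiliary subunits tune their gating and traffic. Many of these genes are long, with large introns, and many are used in neurons, heart muscle and endocrine cells.

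The libraries came from genomic DNA of H1, a human embryonic stem cell line. DNA freed of RNA and sonicated to 200 to 300 bp was incubated, 6 to 7 µg at a time, with 20 pmol of a biotinylated RNA oligo at 37 °C for 1 h in buffer that held 5 mM MgCl2 and 50 mM KCl, and DNA held by the RNA was taken up on streptavidin beads. The groups were MEG3 TFR1 and MEG3 TFR2, oligos from the long noncoding RNA MEG3, GATA6-AS TFR1, an oligo from the antisense transcript of GATA6, and no oligo, in which the RNA was left out and all else kept, with 2 libraries each and 8 in all. The DNA was naked and sonicated, with no chromatin, and no RNA of the cells was measured, so nothing here bears on whether a channel gene was active in H1 cells.

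Each oligo has one list of captured regions, with more signal in the oligo libraries than in the no-oligo libraries, and one of control regions, with more signal in the no-oligo libraries. The authors give a single log2 ratio of oligo over no oligo per region, and no value per library. The spread between libraries and the read depth are therefore unknown, no test across replicates could be made, and every comparison below describes these lists. The same pair of no-oligo libraries serves all 3 comparisons, so a region listed for several oligos is not independent evidence for each. Where 3 values stand together, they are for MEG3 TFR1, then MEG3 TFR2, then GATA6-AS TFR1.

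KCN regions were mostly captured regions. MEG3 TFR1 had 425 captured and 36 control KCN regions, MEG3 TFR2 had 318 and 37, and GATA6-AS TFR1 had 494 and 130. With MEG3 TFR1, 92.2% of the KCN regions were captured (95% Wilson interval 89.4 to 94.3), where 87.1% of the regions inside any named autosomal gene and 87.6% of all autosomal regions were. For MEG3 TFR2 the captured share of KCN regions was 89.6% (86.0 to 92.3), against 86.6% inside named genes and 87.0% over all regions. For GATA6-AS TFR1 it was 79.2% (75.8 to 82.2), against 75.3% inside named genes and 74.2% over all regions. For MEG3 TFR2 the interval of the KCN share holds both background shares, and for the other two oligos it lies above them. The intervals cover counting error only, as if regions were independent.

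The captured share varied between chromosomes, so the background was also weighted to the chromosomes that hold the KCN regions. Weighted in this way, regions in other named genes were captured in 87.4% of cases with MEG3 TFR1, 85.4% with MEG3 TFR2 and 76.3% with GATA6-AS TFR1. The last of these lies inside the interval of the GATA6-AS TFR1 KCN share, and the MEG3 TFR2 value lies just below the interval of its own. On chromosome 1, which holds KCND3, KCNN3 and KCNAB2, 98.5% of KCN regions were captured with MEG3 TFR1, against 93.6% of regions in other genes there. On chromosome 21, which holds KCNJ6, KCNJ15 and KCNE1, the KCN share was 83.3% with MEG3 TFR1 and 66.7% with MEG3 TFR2, against 71.8% and 68.2% in other genes. With GATA6-AS TFR1 it was 44.8% on chromosome 21, below the 64.6% of other genes.

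The ratios of captured KCN regions were close to those of the background. The median log2 ratio of captured KCN regions was 1.42 with MEG3 TFR1, 1.44 with MEG3 TFR2 and 1.36 with GATA6-AS TFR1, and in all named genes it was 1.41, 1.44 and 1.33. Captured KCN regions ranged on the log2 scale between 0.53 and 3.34 with MEG3 TFR1, 0.67 and 3.19 with MEG3 TFR2, and 0.57 and 3.65 with GATA6-AS TFR1. Their median widths were 400, 350 and 450 bp in the same order of oligos, and those of captured regions in all named genes were 350, 350 and 400 bp. Control KCN regions had median widths of 225, 250 and 250 bp, against 300, 300 and 250 bp in all named genes. Their median log2 ratios were -1.71, -1.52 and -1.58, against -1.53, -1.46 and -1.57 in all named genes, so the 36 control KCN regions of MEG3 TFR1 lay furthest from their background.

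**Figure D1:**
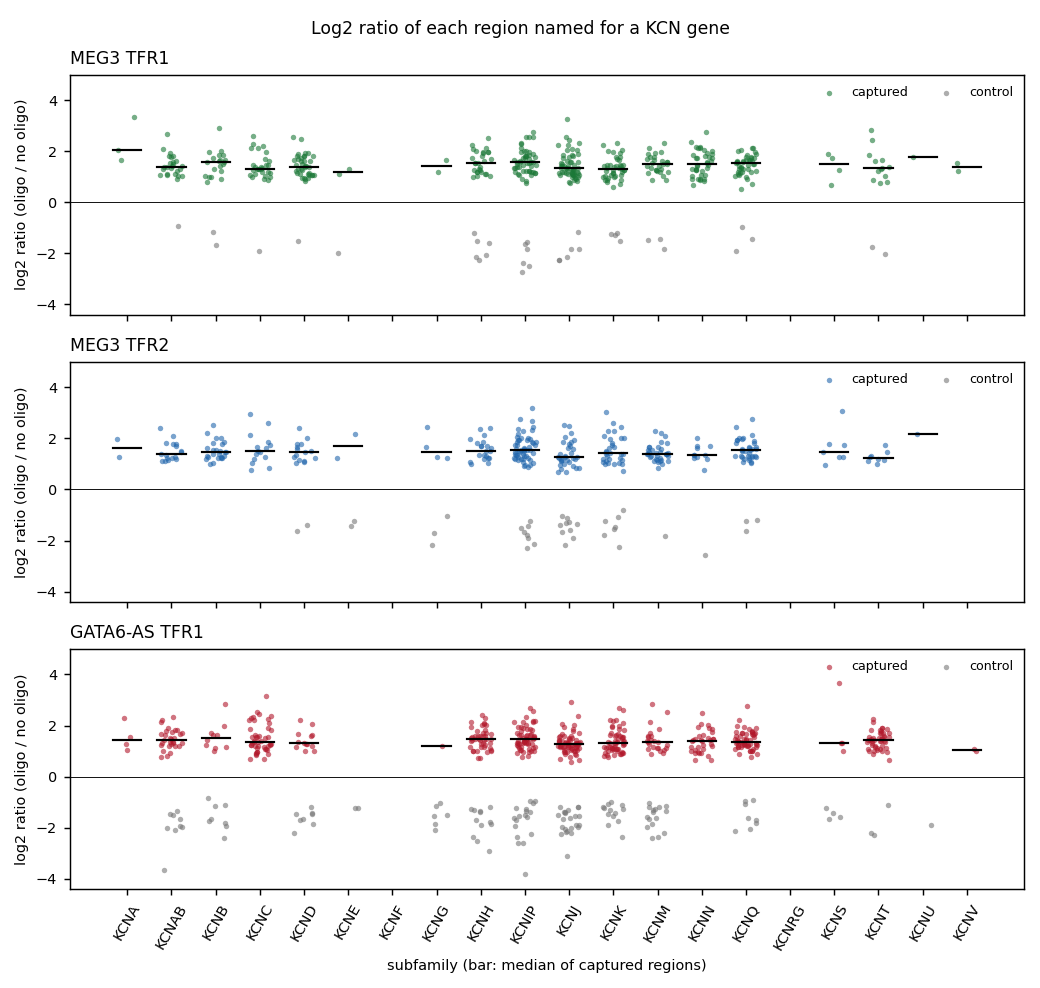
Log2 ratio of oligo over no oligo (vertical axis) for each KCN region, by subfamily (horizontal axis), with 1 panel per oligo. Coloured points are captured regions, grey points are control regions, horizontal offsets are random, and black bars are medians of captured regions, which lie close together across subfamilies with many regions.

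The promoters show the DNA that a captured region at a start site can cover. RefSeq's promoter table (GRCh38.p14) gives 300 bases, 250 before and 50 after a start site, for 70 of the 93 KCN genes. A captured region overlapped this window in 7 KCN genes with MEG3 TFR1 (10.0%, against 6.89% of the 15101 protein-coding genes with a window), in 3 with MEG3 TFR2 (4.29%, against 2.81%) and in 13 with GATA6-AS TFR1 (18.6%, against 16.7%). Only KCNIP1, with GATA6-AS TFR1, had a control region there. The 4 promoters printed here are those with the highest ratio for an oligo (KCNA5 for MEG3 TFR1, KCNK3 for MEG3 TFR2 and KCNIP2 for GATA6-AS TFR1) and KCNJ14, which with KCNK3 was captured by all 3 oligos. They are written 5′ to 3′ along the gene, and capitals mark the longest run of only A and G or only C and T, the kind of tract in which RNA can form a triplex.
KCNA5 promoter: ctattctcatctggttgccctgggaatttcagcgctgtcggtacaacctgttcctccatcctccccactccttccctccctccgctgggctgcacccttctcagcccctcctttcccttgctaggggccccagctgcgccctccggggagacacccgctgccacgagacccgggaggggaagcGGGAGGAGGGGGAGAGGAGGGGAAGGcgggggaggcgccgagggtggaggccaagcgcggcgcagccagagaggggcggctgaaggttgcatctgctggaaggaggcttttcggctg
KCNK3 promoter: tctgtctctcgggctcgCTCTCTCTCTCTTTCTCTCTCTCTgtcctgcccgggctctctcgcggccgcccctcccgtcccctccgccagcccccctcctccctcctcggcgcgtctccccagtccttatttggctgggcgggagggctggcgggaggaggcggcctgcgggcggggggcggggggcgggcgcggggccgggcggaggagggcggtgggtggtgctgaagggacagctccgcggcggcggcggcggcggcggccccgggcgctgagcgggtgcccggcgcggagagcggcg
KCNIP2 promoter: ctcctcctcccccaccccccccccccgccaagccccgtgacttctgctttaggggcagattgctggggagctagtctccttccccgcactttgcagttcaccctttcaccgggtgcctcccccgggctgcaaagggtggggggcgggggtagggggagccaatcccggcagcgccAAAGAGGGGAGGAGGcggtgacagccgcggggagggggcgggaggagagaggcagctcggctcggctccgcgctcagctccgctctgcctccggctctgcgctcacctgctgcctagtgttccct
KCNJ14 promoter: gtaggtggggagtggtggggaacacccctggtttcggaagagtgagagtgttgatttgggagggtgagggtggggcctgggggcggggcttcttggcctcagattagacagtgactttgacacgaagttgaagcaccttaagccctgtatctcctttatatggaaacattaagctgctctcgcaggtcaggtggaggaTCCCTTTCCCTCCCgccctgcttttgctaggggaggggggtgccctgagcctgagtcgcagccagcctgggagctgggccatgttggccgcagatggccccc

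KCNA5 encodes a voltage-gated channel of the Shaker class that carries the ultrarapid repolarizing current of human atrial muscle. Its window lies at chr12:5043629-5043928 on the plus strand and holds a run of 26 bases of A and G, at positions 184 to 209 of the sequence. A single MEG3 TFR1 region, chr12:5043551-5043950, covers the whole window with a log2 ratio of 3.34, a 10.2-fold excess in the MEG3 TFR1 libraries over the no-oligo libraries and the highest of any captured KCN region for that oligo. No KCNA5 region was listed for MEG3 TFR2 or GATA6-AS TFR1, or in a control list.

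KCNK3 encodes an acid-sensitive leak channel that helps to set the resting potential, for example in pulmonary artery muscle. Its window, chr2:26692472-26692771 on the plus strand, has a run of 24 bases of C and T at positions 18 to 41. Regions there had log2 ratios of 2.33 with MEG3 TFR1, 1.82 with MEG3 TFR2 and 1.94 with GATA6-AS TFR1. The MEG3 TFR1 and GATA6-AS TFR1 regions, both chr2:26692301-26692550, contain the whole run, while the MEG3 TFR2 region, chr2:26692351-26692500, ends within it. The authors named only the MEG3 TFR2 region for KCNK3 and the other 2 for neighbouring genes, so those are not among the 1440 regions. Near the far end of KCNK3, control regions named for it as a neighbour lay at chr2:26733651-26734150 with MEG3 TFR1 (log2 ratio -1.48) and at chr2:26733651-26734200 with GATA6-AS TFR1 (-1.30).

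KCNIP2, a calcium-binding partner of the KCND channels that is abundant in heart, has its window at chr10:101843751-101844050 on the minus strand. A GATA6-AS TFR1 region, chr10:101843851-101844350, had a log2 ratio of 2.35 and contained the run of 15 bases of A and G. The window of KCNJ14, an inward rectifier, lies at chr19:48455324-48455623 on the plus strand with log2 values of 1.35 with MEG3 TFR1, 1.30 with MEG3 TFR2 and 1.13 with GATA6-AS TFR1. Its longest run, 14 bases of C and T, was inside the MEG3 TFR1 region and outside the other 2. Over all captured KCN windows, the longest run was inside the region in 5 of 7 with MEG3 TFR1, 1 of 3 with MEG3 TFR2 and 8 of 13 with GATA6-AS TFR1. A wide region can contain the run by its width alone. The same count over all captured protein-coding windows was not made, so no link between capture and these runs can be read from it.

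The purine words GAGAGAGA, AAGAAGAA, GGAGGAGG and GGAAGGAA were searched on both strands, where one stretch may match several of them. At least 1 word was present in 20 of the 70 KCN windows (28.6%), against 19.1% of all protein-coding windows. GGAGGAGG was in 12 KCN windows (17.1%, against 12.3% of all), among them those of KCNA5, KCNIP2 and KCNK3, and GAGAGAGA was in 5 (7.14%, against 3.10%). Of the KCN windows captured with GATA6-AS TFR1, 5 of 13 (38.5%) held a word, against 24.4% of all windows captured with that oligo. KCN windows captured with no oligo of the 3 held one in 13 of 54 cases (24.1%), against 17.3% of all such windows. A match says only that these letters are present in the window.

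Gene ends were also counted from coordinates, as a captured region within 1 kb of either end of the gene. With MEG3 TFR1 28 of the 93 KCN genes had one (30.1%, against 29.4% of all protein-coding genes), with MEG3 TFR2 28 (30.1%, against 23.2%) and with GATA6-AS TFR1 51 (54.8%, against 48.8%). The share with MEG3 TFR1 was thus close to the background, and those with MEG3 TFR2 and GATA6-AS TFR1 were higher than theirs. No interval was computed for these shares of 93 genes, so no difference from the background can be read from them. Control regions lay at the ends of 4 KCN genes with MEG3 TFR1 (4.30%, against 2.44% of all protein-coding genes), 5 with MEG3 TFR2 (5.38%, against 2.32%) and 6 with GATA6-AS TFR1 (6.45%, against 6.18%). Among edge regions that the authors named for the gene itself, the highest ratios with MEG3 TFR1 after KCNA5 belonged to KCNJ9, a subunit of the G protein-gated inward rectifiers (log2 2.56), and KCNH4, a voltage-gated channel of the ether-a-go-go class (2.25). Among the highest with MEG3 TFR2 were those of KCNH5 of the same class (2.35) and KCNIP3, a calcium-binding partner also known as a transcriptional repressor (2.04). Among the highest with GATA6-AS TFR1 were those of the fast voltage-gated KCNC2 (2.44) and KCNC4 (2.36).

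Most captured KCN regions lay far inside the genes. Where a start site is in the table, the median distance of a captured KCN region from it was 61.8 kb with MEG3 TFR1, 96.0 kb with MEG3 TFR2 and 27.0 kb with GATA6-AS TFR1, against 44.3, 45.3 and 28.2 kb in other genes. Within 1 kb of the start site lay 3.63% of the captured KCN regions with MEG3 TFR1, 2.68% with MEG3 TFR2 and 6.65% with GATA6-AS TFR1, against 5.04%, 3.52% and 9.19% in other genes. Control KCN regions of GATA6-AS TFR1 lay at a median of 100.7 kb from the start site, against 51.4 kb in other genes.

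The count of regions went with gene length, so KCN genes were read against genes of like span. By the authors' names, 63 of 93 KCN genes (67.7%) had a captured region with MEG3 TFR1, 54 (58.1%) with MEG3 TFR2 and 62 (66.7%) with GATA6-AS TFR1, where 43.8%, 42.0% and 50.5% of all protein-coding genes did. Only 73.2% of the names in the lists matched the gene table, so gene spans were also overlapped with the regions directly. Then 73 KCN genes (78.5%), 67 (72.0%) and 70 (75.3%) had a captured region, against 62.6%, 59.3% and 69.9% of all protein-coding genes. Across the 93 KCN genes the count of captured regions and the span had a Spearman rho of 0.58 with MEG3 TFR1, 0.53 with MEG3 TFR2 and 0.30 with GATA6-AS TFR1, a description over genes that share libraries.

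By names, KCN genes under 20 kb had a captured region in 41.2% of cases with MEG3 TFR1, 38.2% with MEG3 TFR2 and 58.8% with GATA6-AS TFR1, against 25.6%, 24.0% and 35.0% of all genes of that span. In the class of 20 to 100 kb the KCN shares were 83.3%, 56.7% and 70.0%, against 49.8%, 47.2% and 55.9%. From 100 to 300 kb they were 76.9%, 84.6% and 76.9%, against 74.4%, 74.2% and 76.1%. Over 300 kb they were 87.5%, 81.2% and 68.8%, against 90.8%, 92.3% and 89.6%. The classes, from short to long, held 34, 30, 13 and 16 KCN genes. From overlap of coordinates the differences were smaller under 20 kb and from 20 to 100 kb. KCN genes under 20 kb had a captured region in 52.9%, 50.0% and 64.7% of cases, against 44.5%, 39.3% and 56.3% of other genes. Those of 20 to 100 kb had one in 90.0%, 76.7% and 76.7% of cases, against 71.0%, 68.2% and 76.0%. Those over 300 kb had one in 100%, 87.5% and 81.2%, against 97.0%, 98.6% and 98.1%. KCN genes of 20 to 100 kb were thus near the background with GATA6-AS TFR1 by coordinates, and those over 300 kb were below it with MEG3 TFR2 and GATA6-AS TFR1 by both counts but above it with MEG3 TFR1 by coordinates.

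The density of captured regions showed the class of 20 to 100 kb most clearly. From overlap of coordinates, the 30 KCN genes of 20 to 100 kb held 11.3 captured regions per 100 kb with MEG3 TFR1, against 5.39 in other genes of that span and 5.96 when those were weighted to the same chromosomes. With MEG3 TFR2 the density was 7.98, against 4.37 and 4.72, and with GATA6-AS TFR1 it was 19.6, against 7.89 and 8.73. KCN genes over 300 kb held 2.14, 1.99 and 1.17 captured regions per 100 kb for the 3 oligos, against 2.32, 1.99 and 2.01 in other genes and 1.94, 1.74 and 1.71 in those weighted by chromosome. Only with GATA6-AS TFR1 were the longest KCN genes below both of these values.

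**Figure D2:**
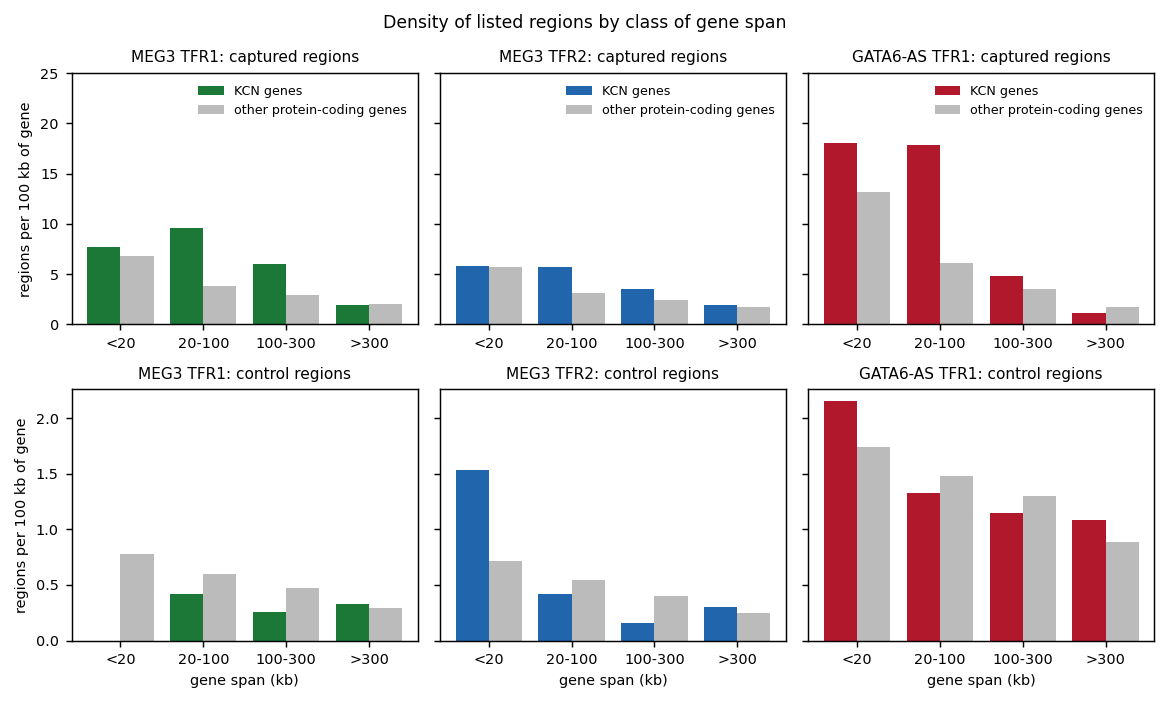
Captured (upper row) and control (lower row) regions per 100 kb of gene, by the authors' names (vertical axis), for KCN genes (coloured) and other protein-coding genes (grey) in 4 classes of gene span in kb (horizontal axis). Captured densities of KCN genes of 20 to 100 kb were 9.59, 5.67 and 17.9 for the 3 oligos, against 3.85, 3.12 and 6.10 in other genes.

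The voltage-gated pore subunits differed widely between subfamilies. KCNC genes, which encode fast delayed rectifiers of rapidly firing neurons, had 29 captured regions with MEG3 TFR1, 15 with MEG3 TFR2 and 46 with GATA6-AS TFR1, and 1 control region in all. That is 9.25, 4.79 and 14.7 captured regions per 100 kb, where all KCN genes together had 3.74, 2.80 and 4.34. KCNC4 had 10, 0 and 7 captured regions in 73.8 kb. KCNC2, the longest of these genes at 169.8 kb, had 0, 3 and 5.

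KCNQ genes encode slowly activating voltage-gated channels, among them the M-current subunits of neurons. The 4 genes analysed here had 42, 36 and 57 captured regions and 3, 3 and 8 control regions. KCNQ5, the longest of these genes, had 8, 2 and 4 captured regions and 2, 2 and 5 control regions. KCNQ3, an M-current subunit, had 16, 16 and 7 captured and 1, 1 and 3 control regions. Per 100 kb of gene the subfamily had 3.94, 3.38 and 5.35 captured regions.

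KCNA genes are short, mostly single-exon genes of the Shaker class, and 5 of 8 were listed. They had 3, 2 and 4 captured regions with the 3 oligos and no control region, or 2.37, 1.58 and 3.15 per 100 kb. KCNA2, a subunit of axonal channels, was the gene of this subfamily with the most, with 1 region for each oligo and log2 ratios of 2.04, 1.98 and 1.29. KCNA1, mutated in episodic ataxia, had 1 GATA6-AS TFR1 region with a log2 ratio of 2.29. With so few regions, no difference of KCNA from the other subfamilies can be read from these counts.

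KCND genes encode the A-type channels of dendrites and of the early repolarization of heart muscle, and the 2 members went apart. KCND3, of 219.0 kb at chr1:111770662-111989668, had 35 captured regions with MEG3 TFR1, the most of any KCN gene for that oligo, 15 with MEG3 TFR2 and 13 with GATA6-AS TFR1, and 0, 0 and 3 control regions. KCND2, of 477.4 kb on chromosome 7, had 3, 0 and 0 captured regions and 1, 2 and 5 control regions. KCNB2, a slow delayed rectifier, had 6, 12 and 0 captured regions and 0, 0 and 5 control regions.

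KCNH genes, of the ether-a-go-go class, had 28, 21 and 44 captured regions and 6, 0 and 12 control regions. KCNH2, which carries the rapid delayed rectifier of the heart, had 2, 6 and 15 captured regions in 33.4 kb and no control region. KCNH1 had 10, 5 and 8 captured regions in 455.8 kb. KCNH8, of 387.1 kb, had 0, 5 and 0 captured regions and 2, 0 and 4 control regions.

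The silent subunits, which form no channel alone and modify the KCNB channels, had few regions named for them, apart from KCNS3. KCNS3 had 4, 7 and 4 captured regions and 0, 0 and 4 control regions, and its region chr2:17903301-17903700 had the highest log2 ratio of all 1440 KCN regions, 3.65 or 12.5-fold with GATA6-AS TFR1. All 7 of its captured MEG3 TFR2 regions lie beyond the RefSeq end of the gene, the top one (log2 ratio 3.07) at chr2:18356501-18356650. So do its GATA6-AS TFR1 control regions at chr2:18107101-18107350 and chr2:18189001-18189200. KCNG1 had 2, 2 and 1 captured regions, KCNV1 1, 0 and 1, and KCNV2 1, 0 and 1. KCNG3 had 0, 2 and 0 captured regions and 0, 1 and 5 control regions.

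Among channels opened by calcium or sodium, KCNN3 and KCNT1 stood out by count. KCNN3, a small-conductance calcium-activated channel, lies at chr1:154697455-154870281 and had 30 captured regions with MEG3 TFR1, 10 with MEG3 TFR2 and 17 with GATA6-AS TFR1. None of the 3 control lists held a KCNN3 region. KCNT1, a sodium-activated channel mutated in early epilepsies, lies at chr9:135702185-135795502 and had 45 captured regions with GATA6-AS TFR1, the most of any KCN gene for any oligo, against 11 with MEG3 TFR1 and 8 with MEG3 TFR2. Their median log2 ratio was 1.32 with MEG3 TFR1, 1.22 with MEG3 TFR2 and 1.43 with GATA6-AS TFR1, against 1.42, 1.44 and 1.36 over all captured KCN regions, so the KCNT1 regions with GATA6-AS TFR1 were many and of usual height. It had 1, 0 and 1 control regions.

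KCNMA1, the large-conductance calcium- and voltage-activated channel of smooth muscle and neurons, spans 768.2 kb on chromosome 10. It had 26, 26 and 20 captured regions and 2, 1 and 10 control regions. KCNN1, another small-conductance channel, had 7, 1 and 9 captured regions, and KCNN4, the intermediate-conductance channel of blood cells, had 0, 0 and 7. KCNN2 had 1 captured region with MEG3 TFR1 and 1 control region with MEG3 TFR2, with log2 ratios of 1.81 and -2.58. KCNU1, a channel of sperm, had 1, 1 and 0 captured regions.

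**Figure D3:**
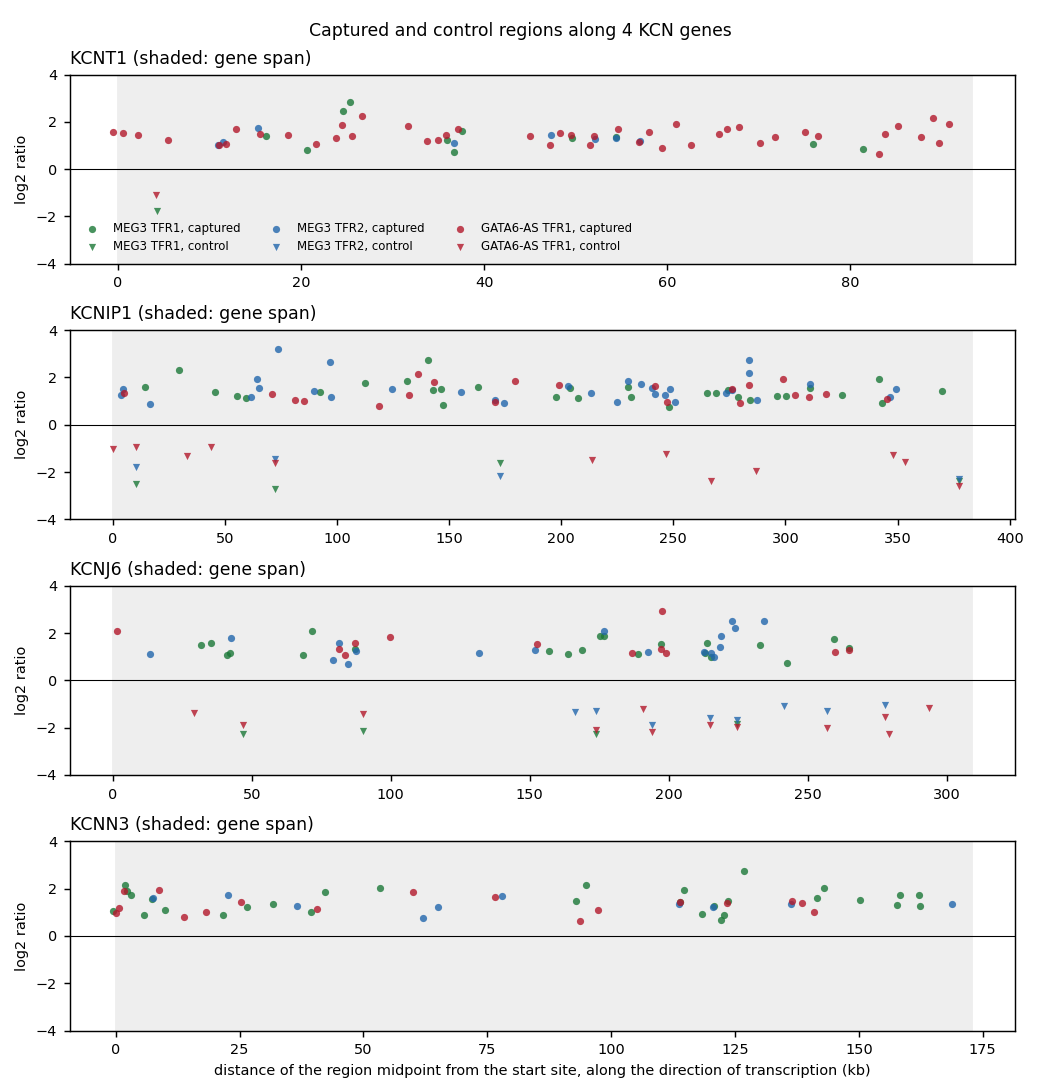
Log2 ratio of oligo over no oligo (vertical axis) for captured (circles) and control (triangles) regions along KCNT1, KCNIP1, KCNJ6 and KCNN3, by distance of the region midpoint from the start site in kb (horizontal axis), in the 3 oligo colours. The 45 GATA6-AS TFR1 captured regions of KCNT1 run over the whole span, KCNIP1 and KCNJ6 hold captured and control regions side by side, and KCNN3 has no control region.

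Inward rectifiers, the KCNJ genes, pass potassium into the cell more easily than out of it and hold the resting potential in heart, glia and endocrine cells. They had 59, 33 and 64 captured regions and 6, 10 and 23 control regions. The captured share was 90.8% (81.3 to 95.7), 76.7% (62.3 to 86.8) and 73.6% (63.4 to 81.7). KCNQ shares were 93.3%, 92.3% and 87.7% and KCNK shares 91.1%, 82.1% and 81.2%, so KCNJ had the lowest of these for each oligo. Its Wilson intervals overlap those of KCNQ and KCNK for every oligo. The place of KCNJ below KCNK rests on KCNJ6 alone, which held 4, 8 and 12 of the KCNJ control regions.

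KCNJ6, a G protein-gated inward rectifier of neurons at chr21:37607373-37916457, made up most of the KCNJ control regions. It had 21, 18 and 12 captured regions and 4, 8 and 12 control regions. Its captured log2 ratios reached 2.09, 2.53 and 2.93. KCNJ10, the main inward rectifier of glia, had 8, 0 and 8 captured regions, and KCNJ4 had 8, 3 and 10. KCNJ12 had 7, 3 and 14, and its near-identical copy KCNJ18 had 1, 1 and 1, counts that depend on how reads were placed between the copies. KCNJ15 had few regions, 2, 1 and 1 captured, but one of them reached a log2 ratio of 3.27 with MEG3 TFR1 at chr21:38207251-38207650, outside the RefSeq span.

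KCNK genes encode leak channels whose subunits each hold a pair of pore domains, and all 15 autosomal members were listed. They had 41, 32 and 56 captured regions and 4, 7 and 13 control regions, or 4.70, 3.67 and 6.42 captured regions per 100 kb, against 7.04, 3.94 and 7.63 for KCNJ and 3.94, 3.38 and 5.35 for KCNQ. The order of KCNK and KCNQ turned without the longest gene of each: KCNQ without KCNQ5 had 6.95, 6.95 and 10.8, above the 6.24, 4.99 and 8.26 of KCNK without KCNK2. KCNK9, an acid-sensitive leak channel related to KCNK3, had the most, with 7, 9 and 16. KCNK3 had 4, 4 and 5 captured regions named for it, with a top log2 ratio of 3.01 with MEG3 TFR2 at chr2:26723101-26723400. KCNK12 had 5, 4 and 6, and its stretch chr2:47533951-47534200 was captured by all 3 oligos with log2 ratios of 2.06, 2.00 and 1.54. KCNK10 had 8, 3 and 1, and KCNK2, a stretch-sensitive channel, had 1, 0 and 3.

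**Figure D4:**
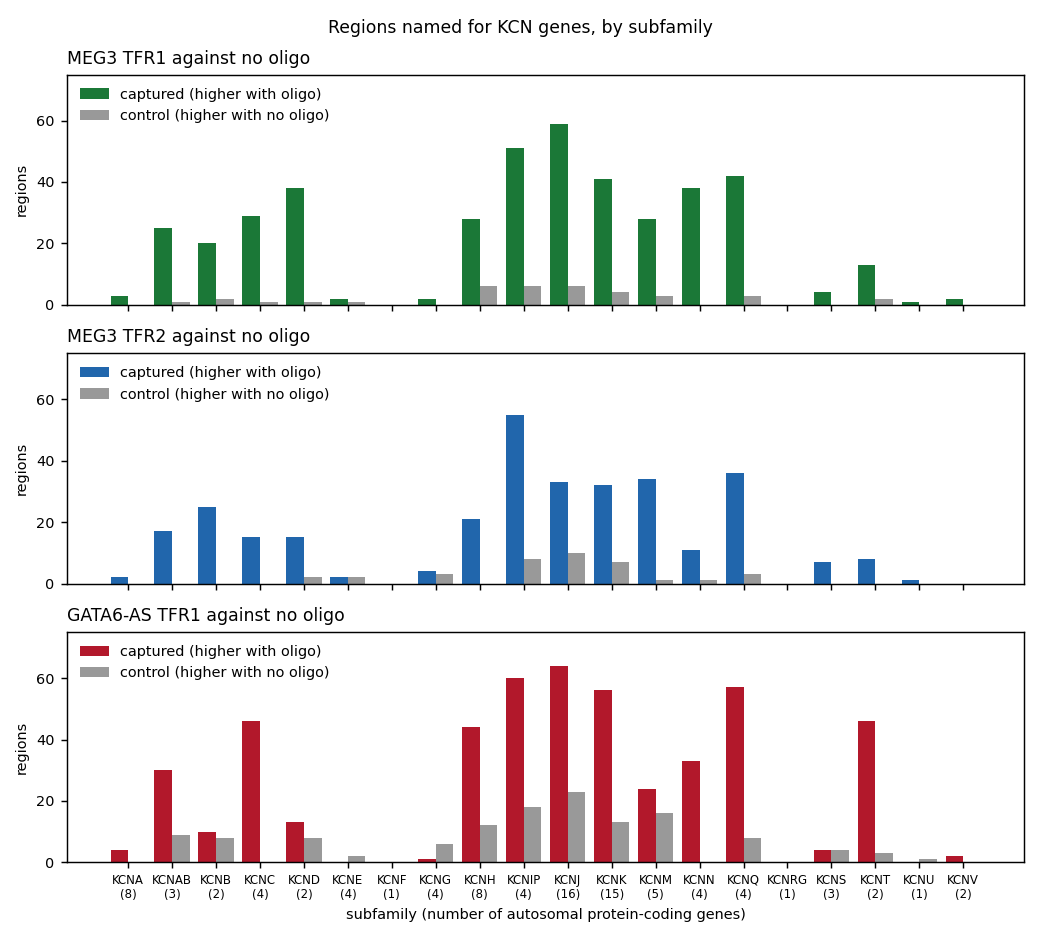
Number of captured (coloured) and control (grey) regions (vertical axis) in each KCN subfamily (horizontal axis, with its number of autosomal protein-coding genes), with 1 panel per oligo. KCNIP, KCNJ and KCNQ have high captured counts in all panels, and control regions are most frequent with GATA6-AS TFR1. Captured counts of KCNA, KCNAB, KCNC, KCNH, KCNIP, KCNJ, KCNK, KCNQ and KCNT are higher with GATA6-AS TFR1 than with either MEG3 oligo. GATA6-AS TFR1 also has the longest captured list, 104716 autosomal regions, against 89682 with MEG3 TFR1 and 73515 with MEG3 TFR2.

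Auxiliary subunits also held many regions. KCNIP genes, calcium-binding partners of the KCND channels, had 51, 55 and 60 captured regions and 6, 8 and 18 control regions. KCNIP1, at chr5:170353487-170736632, led with 31, 32 and 21 captured regions, and it also had 4, 4 and 12 control regions. Its highest ratio was a log2 value of 3.19, or 9.10-fold, with MEG3 TFR2 at chr5:170427101-170427300. The lowest MEG3 TFR1 control value of any KCN region, -2.72, was at chr5:170425901-170426100 in the same gene, about 1 kb away. KCNIP3 had 8, 8 and 23 captured regions and 1 control region in all, and the short KCNIP2 had 4, 4 and 13 and none.

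KCNIP4, which spans 1220 kb, had only 8, 11 and 3 captured regions and 2, 4 and 5 control regions. One of these control regions, chr4:21530051-21530250, reached -3.81 on the log2 scale with GATA6-AS TFR1, the lowest of all KCN regions. KCNAB genes, the cytoplasmic beta subunits of the Shaker-class channels, had 25, 17 and 30 captured regions. KCNAB2 held 13, 6 and 23 of them with 0, 0 and 1 control regions, while KCNAB1 had 12, 10 and 4 captured and 1, 0 and 8 control regions. KCNE genes, single-pass partners of KCNQ and KCNH channels, had 2, 2 and 0 captured and 1, 2 and 2 control regions, and the KCNMB partners of KCNMA1 were represented mainly by KCNMB2, with 0, 8 and 4 captured and 1, 0 and 5 control regions.

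Control regions outnumbered captured ones in 6 KCN genes when the 3 comparisons were added up. These were KCND2 with 3 captured and 8 control regions, KCNG3 with 2 and 6, KCNH8 with 5 and 6, KCNJ5, a G protein-gated rectifier of heart and adrenal cells, with 3 and 5, KCNE2 with 0 and 2, and KCNG4 with 0 and 1. The sums count a stretch once for each oligo that lists it, so they are not counts of separate loci. Both KCNE2 control regions start at chr21:34362901. Overlapping KCNJ5 control regions near chr11:128893151 were listed for all 3 oligos, which share the no-oligo libraries. The order of the sums may differ over separate loci. With GATA6-AS TFR1, KCN genes over 300 kb had 86 captured and 83 control regions, and other genes of that span had 7024 and 3650. Over all spans the counts with this oligo were 494 and 130 for KCN genes. No region was named for 12 KCN genes: KCNA3, KCNA6, KCNA10, KCNE3, KCNF1, KCNG2, KCNJ13, KCNJ16, KCNMB3, KCNRG, KCNS1 and KCNS2. The share of all protein-coding genes with no named region, or with more control than captured regions, was not computed. Neither count can therefore be read as a trait of KCN genes. For KCNA6, KCNF1, KCNG2 and KCNS2, a GATA6-AS TFR1 captured region still lay within 1 kb of a gene end by coordinates.

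Genes outside the symbol rule that work with potassium channels gave a comparison. A list of 9 partners, among them DPP6 and DPP10, which join the KCND channels, and ABCC8 and ABCC9, the sulfonylurea receptors of the KCNJ11 and KCNJ8 channels, had 45, 39 and 35 captured regions and 10, 7 and 23 control regions. Of these DPP6 had 34, 19 and 15 captured regions in 1146 kb and DPP10 had 6, 9 and 7 in 1403 kb. Per 100 kb the list had 1.58, 1.37 and 1.23 captured regions. The 4 hyperpolarization-activated HCN channels had 3.39, 3.96 and 5.85, the 9 autosomal sodium channel alpha subunits had 2.39, 2.16 and 3.16, and all KCN genes had 3.74, 2.80 and 4.34. These densities were not matched for gene span, and DPP6 and DPP10 make up most of the 2853 kb of the partner list. By names, KCN genes over 300 kb had 1.93, 1.95 and 1.12 captured regions per 100 kb. Other genes of that span had 2.01, 1.70 and 1.71. Among the sodium channels SCN4A, the skeletal muscle subunit, had 0, 0 and 12 captured regions.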

How the data were processed

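Sequencing of DNA captured by 3 RNA oligos or recovered with no oligo gave 8 libraries. The submitters' processing notes name BWA 0.7.15-r1140, FastQC and the build hg38. How regions were called, and how libraries were scaled, is not stated in the labels or headers. The 6 deposited lists hold positions, gene names and the authors' log2 ratio per region, with no count, p-value or value per library, so the depth is unknown and no test was made.

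A name without a strand mark was read as a region inside or beside the gene. Names with a mark, which point to a neighbouring gene, gave a further 455 regions that were used only as an alternative. Of 23051 unmarked names, 73.2% matched a RefSeq symbol (GRCh38.p14), and 95.6% of the KCN region and gene pairs overlapped the RefSeq span. Of the KCN regions, 105 carried more than one name, and 2 of them named a pair of KCN genes and counted for both. Densities divide regions by gene span. Weighting the background by chromosome and marking the longest run in promoters were chosen after values had been seen. Coordinates are printed from 1.

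The members and gene lists were chosen with earlier results of these data known. Genes were named by rule: the most captured or control regions and the highest ratios per oligo, the top gene of each subfamily, loci captured by all 3 oligos, and genes with more control than captured regions or with none. Other genes of a subfamily were added for contrast after their values were seen, and some genes that the rule selects are not reported here. Python 3.11.15, numpy 2.4.6, pandas 2.3.3, scipy 1.17.1 and matplotlib 3.10.9 were used, and the counting was tested on simulated lists.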

Additional observations from a re-analysis of the deposited data

How the results depend on the processing

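Of 135 alternative values, 106 stayed within 1.5 times the value given, or within the spread used for shares and medians, and 29 moved. Keeping only log2 ratios of at least 1.5 in size left 187, 146 and 183 captured KCN regions for MEG3 TFR1, then MEG3 TFR2, then GATA6-AS TFR1, and 19 and 74 control regions for MEG3 TFR2 and GATA6-AS TFR1. The captured share was then 88.2% for MEG3 TFR1 and 71.2% for GATA6-AS TFR1. The share of all regions at this cut was not computed, so these values cannot be set against the background shares given without a cut. The upper 50% of each list by size of ratio held 218, 159 and 261 captured and 23, 20 and 66 control KCN regions. These counts are smaller because fewer regions were counted. Edges of 5 kb gave 62 KCN genes for MEG3 TFR1 and 60 for MEG3 TFR2, and edges with log2 ratios of at least 1.5 gave 13, 14 and 27. The same edge counts were not made over all protein-coding genes, so these have no background share. Regions of 300 bp or more had median log2 ratios of 1.31 for MEG3 TFR1 and 1.30 for MEG3 TFR2.

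Of the 6 subfamilies run without their longest gene (KCNA, KCNC, KCNIP, KCNJ, KCNK and KCNQ), the density moved by over 1.5 times in 3. Captured regions per 100 kb were 6.95, 6.95 and 10.8 for KCNQ without KCNQ5, 20.2, 8.35 and 28.5 for KCNC without KCNC2, and 8.78, 8.99 and 11.6 for KCNIP without KCNIP4. Counting strand-marked neighbour names too, an alternative chosen after seeing the data, gave 557, 431 and 616 captured and 54, 55 and 182 control regions. Overlap between the oligos' lists was planned but not run, since the comparisons share the no-oligo libraries. No paired analysis was possible because the lists hold no value per library, and for the same reason no library could be left out. The depth behind each ratio is unknown.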
